A study of Mus musculus with 15 samples.

Results

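The genes described here are the nuclear-encoded subunits of the mitochondrial respiratory chain and ATP synthase, in muscle and heart of dystrophic mice. They were taken from the deposited expression table by symbol, as the protein-coding genes whose GENCODE name begins with Ndufa, Ndufb, Ndufc, Ndufs, Ndufv, Uqcr or Atp5, with the 4 Sdh genes and the Cox4 to Cox8 genes, leaving out the Ndufaf assembly factors. The rule found 90 genes among the 56980 identifiers of the table, 38 for complex I, 4 for complex II, 8 for complex III, 21 for complex IV and 19 for complex V. Complex IV includes Ndufa4, Ndufa4l2 and the pseudogene-like Cox5b-ps, which the annotation lists as protein coding, and complex V includes a second identifier of Atp5po. The 15 libraries came from DBA/2J-mdx mice, which lack dystrophin, and every mouse was given vehicle or dasatinib and quercetin (D + Q) by mouth 2 times per week. Tibialis anterior (TA) muscle was treated from 3 months of age and collected at 5 months, after 2 months of treatment, with 4 vehicle libraries (2 female, 2 male) and 4 D + Q libraries (all male). Heart was treated from 12 months of age and collected at 16 months, after 4 months of treatment, with 4 vehicle libraries (2 female, 2 male) and 3 D + Q libraries (2 labelled female, 1 labelled male). Tissue, age and length of treatment therefore differ together and cannot be told apart, no library is from a mouse with dystrophin, and in TA all D + Q mice share a sex. Read from expression, the D + Q hearts share a sex too, female.

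The respiratory chain sits in the inner mitochondrial membrane. Complex I takes electrons from NADH and complex II takes them from succinate, both pass them through ubiquinone to complex III, and cytochrome c carries them to complex IV, which reduces oxygen. Complexes I, III and IV pump protons, and complex V, the ATP synthase, uses the returning protons to make ATP. The mitochondrial genome encodes some core subunits of complexes I, III, IV and V, and the nucleus encodes the rest and the whole of complex II. The symbol rule takes most of these nuclear genes but not all, since Cyc1, the cytochrome c1 of complex III, bears another name. Heart and oxidative muscle are rich in these proteins, and in them some complex IV subunits are made from muscle isoforms (Cox6a2, Cox7a1 and Cox8b) in place of the isoforms used elsewhere (Cox6a1, Cox7a2 and Cox8a).

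The start regions of 6 genes named in the results are shown, and no expression result was drawn from them. They are the muscle isoforms Cox7a1 and Cox8b beside their partners Cox7a2 and Cox8a, and Ndufs6 and Atp5if1, which differed most between TA and heart in complexes I and V. Each window holds 250 bases before the annotated start and 30 bases after it, was taken from RefSeq on build GRCm38.p6 of the C57BL/6J reference, and is written in the direction of the gene. It is not sequence from the mice studied, whose values were aligned to GRCm39. Capitals mark matches to 3 motifs, searched on both strands, which are GCGCANGCG of the factor NRF1, CCGGAAG of ETS factors such as GABP, and the E-box CAGCTG, which reads the same on both strands. Another motif, TCAAGGTCA of the estrogen-related receptors (ERR), had no match in these 6 windows. The windows lie at chr7:30183921-30184200 on the plus strand for Cox7a1, chr9:79759824-79760103 on the minus strand for Cox7a2, chr7:140900417-140900696 on the minus strand for Cox8b, chr19:7217587-7217866 on the minus strand for Cox8a, chr13:73328453-73328732 on the minus strand for Ndufs6 and chr4:132535385-132535664 on the minus strand for Atp5if1.
Cox7a1: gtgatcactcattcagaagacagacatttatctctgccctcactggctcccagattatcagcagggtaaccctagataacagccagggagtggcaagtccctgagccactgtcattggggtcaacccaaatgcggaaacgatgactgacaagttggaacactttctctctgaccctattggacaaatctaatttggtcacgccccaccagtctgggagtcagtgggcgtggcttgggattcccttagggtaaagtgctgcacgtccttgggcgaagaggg
Cox7a2: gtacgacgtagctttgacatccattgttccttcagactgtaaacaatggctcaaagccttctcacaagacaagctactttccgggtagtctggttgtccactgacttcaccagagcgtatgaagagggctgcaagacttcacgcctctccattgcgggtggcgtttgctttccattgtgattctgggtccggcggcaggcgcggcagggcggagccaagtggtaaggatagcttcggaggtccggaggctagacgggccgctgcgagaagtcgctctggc
Cox8b: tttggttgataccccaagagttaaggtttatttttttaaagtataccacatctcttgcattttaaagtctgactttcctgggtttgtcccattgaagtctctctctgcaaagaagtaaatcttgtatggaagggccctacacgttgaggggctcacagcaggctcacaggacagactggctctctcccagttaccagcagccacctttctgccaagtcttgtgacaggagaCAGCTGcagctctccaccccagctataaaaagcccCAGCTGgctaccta
Cox8a: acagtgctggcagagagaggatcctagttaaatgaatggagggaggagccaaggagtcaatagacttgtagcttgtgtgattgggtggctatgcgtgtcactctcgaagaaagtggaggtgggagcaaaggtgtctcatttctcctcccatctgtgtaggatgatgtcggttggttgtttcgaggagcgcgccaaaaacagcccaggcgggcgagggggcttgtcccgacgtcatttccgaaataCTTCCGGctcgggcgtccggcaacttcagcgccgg
Ndufs6: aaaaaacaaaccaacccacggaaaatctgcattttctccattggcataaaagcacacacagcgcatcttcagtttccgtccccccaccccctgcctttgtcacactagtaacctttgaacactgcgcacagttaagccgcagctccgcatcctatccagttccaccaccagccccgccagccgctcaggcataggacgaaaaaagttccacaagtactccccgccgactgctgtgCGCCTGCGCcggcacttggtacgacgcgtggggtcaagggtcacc
Atp5if1: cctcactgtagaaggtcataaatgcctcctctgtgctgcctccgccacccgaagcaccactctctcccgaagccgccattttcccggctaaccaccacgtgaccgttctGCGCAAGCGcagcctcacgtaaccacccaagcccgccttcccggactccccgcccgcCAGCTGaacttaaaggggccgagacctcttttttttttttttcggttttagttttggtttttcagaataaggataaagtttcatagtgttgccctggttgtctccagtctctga

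The windows of Cox7a1 and Cox8b held 6 and 1 CpG, against 18 in Cox7a2 and 17 in Cox8a, and the other muscle isoform, Cox6a2, had no window in the table. Ndufs6 held 17 CpG and an NRF1 match on the reverse strand, 15 to 7 bases before the start, and Atp5if1 held 16 CpG, an NRF1 match at 141 to 133 and an E-box at 84 to 79 bases before the start. Cox8b had an E-box 19 to 14 bases before the start and another in the first bases of the transcript, Cox8a an ETS match that spans the start, and neither Cox7a1 nor Cox7a2 a match. Of the 90 genes, 70 had a window in the table. NRF1 matches stood in 19 of the 70 (27.1%), against 6.19% of all 27025 windows, ETS matches in 15 (21.4%, against 8.7%), an ERR match in Atp5mc3 alone (1.43%, against 0.4%) and an E-box in 7 (10%, against 14.7%). NRF1 or ETS matches were found in 28 members (40.0%, against 13.7% of all windows), 6 of which had both. The members' windows held a median of 17 CpG, against 7 for all windows, and only 5 of 70 members (7.14%, against 58.0% of all windows) had fewer than 10. These were the muscle isoforms Cox7a1 and Cox8b, and also Cox6b2 with 9, Cox7b with 5 and Ndufc2 with 7, which are not muscle isoforms. The set of all windows was not limited to protein-coding genes, while all members are protein coding. A match is a string of letters and not a measured binding site.

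Expression was deposited as TPM (a transcript abundance), which is scaled for gene length and sums to 1000000 in each library. TPM keeps no read depth, so no counting error can be given and the precision comes from the spread between samples. The labels number the samples of a group but do not say how they were drawn, so p-values measure only the spread between these samples. Of the 90 members, 86 passed the filter of at least 0.5 TPM in at least 3 libraries in every comparison, and Ndufb11b, Cox7b2, Cox8c and the second Atp5po identifier did not. Differences are on the scale log2(TPM + 0.5), where the added 0.5 makes differences of genes with low TPM look smaller, and a gene was called at a limma p-value, adjusted over all genes tested by Benjamini-Hochberg, under 0.05 together with an absolute log2 difference above 0.5. Within groups, libraries correlated at 0.949 to 0.982 across genes, and no library was identical to another.

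Some libraries stood apart. Vehicle TA replicate 4 had the lowest summed level of the members of any library, 21168 TPM against 25147 to 29284 TPM in the other 7 TA libraries, and the highest ratio of mitochondrially encoded to nuclear-encoded subunits, 13.0 against 7.50 to 9.34. D + Q heart replicate 3 is labelled male but its Xist and Y-linked transcripts read as female. By expression all D + Q hearts thus read as female, while all D + Q TA libraries are male. The tissue labels were borne out by defining markers: the 6 fast skeletal muscle genes were called higher in TA and the 5 cardiac muscle genes higher in heart. In addition, 1 D + Q heart (replicate 2) held 85.4 TPM of fast skeletal muscle transcripts against 0.69 to 3.49 TPM in the other 6 hearts. The heart groups also differed as libraries. D + Q hearts had 22579 to 22818 genes above 0 TPM and vehicle hearts 24089 to 25378. The few most abundant genes of a library held 45.4 to 47.3% of TPM in D + Q hearts and 50.1 to 50.7% in vehicle hearts. The part of this difference in the heart results was not tested.

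The subunit genes held 2.65% of all TPM in vehicle TA and 3.96% in D + Q heart, and their summed level was higher in heart than in TA. Together the 90 genes held 26469 ± 3784 TPM (SD, n = 4) of summed TPM in vehicle TA, 27305 ± 2144 TPM (SD, n = 4) in D + Q TA, 33968 ± 1650 TPM (SD, n = 4) in vehicle heart and 39645 ± 293 TPM (SD, n = 3) in D + Q heart. By library, in the order of the replicate numbers used throughout, the sums were 29099, 29284, 26324 and 21168 TPM in vehicle TA, 25777, 29086, 25147 and 29208 in D + Q TA, 32611, 32759.9, 36139 and 34363 in vehicle heart and 39466, 39983 and 39486 in D + Q heart. The 7 hearts exceeded all 8 TA libraries, the D + Q hearts exceeded the vehicle hearts, and the TA groups overlapped. These are sums over members chosen with results of the data known, so no p-value is given for them. In each complex the sum was higher in D + Q than in vehicle hearts without overlap, by a ratio of means of 1.161 for complex I, 1.196 for complex II, 1.171 for complex III, 1.159 for complex IV and 1.177 for complex V. The 13 subunits encoded by the mitochondrial genome summed to a ratio of 1.071 with overlap between the groups. In TA the ratio of D + Q to vehicle means was 1.032 for all 90 genes. The direction rested on vehicle TA replicate 4, without which the ratio was 0.967. Without that library the TA ratio was below 1 in each of the 5 complexes, from 0.956 in complex IV to 0.974 in complex V. Without D + Q heart replicate 3 the heart ratio for all 90 genes was 1.169, against 1.167 with it.

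**Figure D1:**
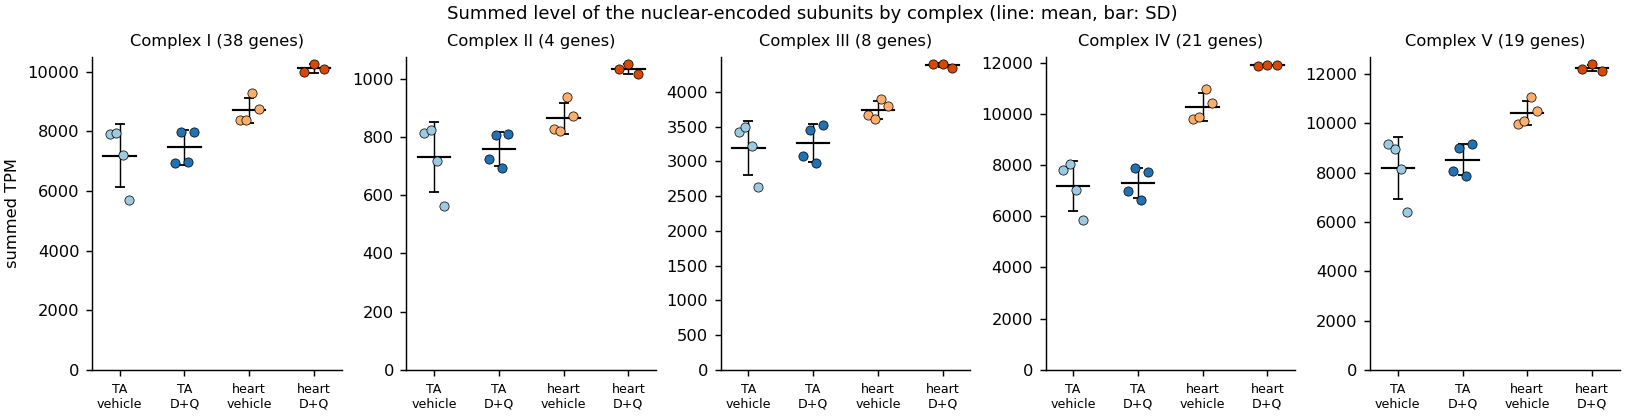
Summed TPM of the nuclear-encoded subunits of each complex in the 15 libraries, by group, with the mean as a line and the SD as a bar. The 3 D + Q hearts lie above the 4 vehicle hearts in all 5 panels, the TA groups overlap in all 5, and vehicle TA replicate 4 is the lowest point of each panel.

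Levels differed widely within complexes, by more than an order of magnitude in complexes IV and V. The highest was Atp5f1b, the catalytic beta subunit of ATP synthase, with 2208, 2224, 1903 and 1364 TPM in vehicle TA, 2011, 2138, 1784 and 2243 in D + Q TA, 2140, 2209, 2356 and 2396 in vehicle heart and 2769, 2719 and 2611 in D + Q heart. In complex IV the highest was Cox6c, a small subunit of the enzyme's membrane part, with 927, 1018, 922 and 1138 TPM in vehicle TA, 862, 953, 838 and 969 in D + Q TA, 1327, 1277, 1361 and 1307 in vehicle heart and 1562, 1485 and 1587 in D + Q heart. In complex III it was Uqcrb, which lies near a ubiquinone site, with 938, 937, 938 and 976 TPM in vehicle TA, 858, 977, 899.7 and 991 in D + Q TA, 1074, 1053, 1075 and 988 in vehicle heart and 1252, 1169 and 1260 in D + Q heart. These 3 genes were higher in every D + Q heart than in any vehicle heart, while their TA groups overlapped, and for Cox6c the hearts lay above every TA library. In complex I the highest mean belonged to Ndufa12, an accessory subunit of the matrix arm, with 564, 532, 517 and 433 TPM in vehicle TA, 497, 553, 556 and 561 in D + Q TA, 507, 530, 536 and 458 in vehicle heart and 562, 591 and 593 in D + Q heart. Ndufa12 was at a like level in vehicle TA and vehicle heart, whose ranges overlapped. In complex II it was Sdha, the flavoprotein that oxidises succinate, with 296, 289, 263 and 208 TPM in vehicle TA, 267, 301, 247 and 295 in D + Q TA, 281, 272, 311 and 299 in vehicle heart and 368, 373 and 355 in D + Q heart. Its ranges in vehicle TA and vehicle heart overlapped too, and again the D + Q hearts were the highest. Among the members with a mean of at least 0.5 TPM over all libraries, the medians of the genes' mean TPM in vehicle TA and vehicle heart were 170.3 and 206 in complex I, 167 and 211 in complex II, 342 and 386 in complex III, 404 and 473 in complex IV and 410.1 and 485 in complex V. Of these members, the lowest of complex I were Ndufb6 in TA (77.0 TPM with vehicle) and Ndufa13 in heart (70.3 TPM with vehicle), and of complex II Sdhc in TA (131 TPM) and Sdhd in heart (151 TPM). In complex III the lowest in both tissues was Uqcrfs1, at 164 and 193 TPM, and in complex V it was Atp5if1 in TA (68.6 TPM) and Atp5mc2 in heart (129.9 TPM). In complex IV, Cox6b2 (an isoform known from testis) and Cox5b-ps had means of 0.766 to 3.67 TPM in all groups.

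In heart, most subunit genes of all 5 complexes were somewhat higher with D + Q than with vehicle, by a median of 0.22 on the log2 scale, and no member met the threshold for a call. Of the 86 members tested, 82 had a positive difference, and in 67 the lowest D + Q heart exceeded the highest vehicle heart. Over all 16132 genes tested in heart, 9.63% lay above without overlap and the median difference was -0.0025. Among the 1193 heart genes with a mean of at least 50 TPM, a level that most members reach, the share above without overlap was 36%. No member lay below without overlap, against 5.57% of all genes. The differences were small beside the threshold: 0 members were called, against 0.316% of all genes (51), and at an unadjusted p-value under 0.05 70 members were higher (9.65% of all genes) and 1, Cox6b2, was lower (7.99% of all genes). At an adjusted p-value under 0.05 with any fold change 0.13% of all genes were higher, 21 in number, and no member was among them.

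**Figure D2:**
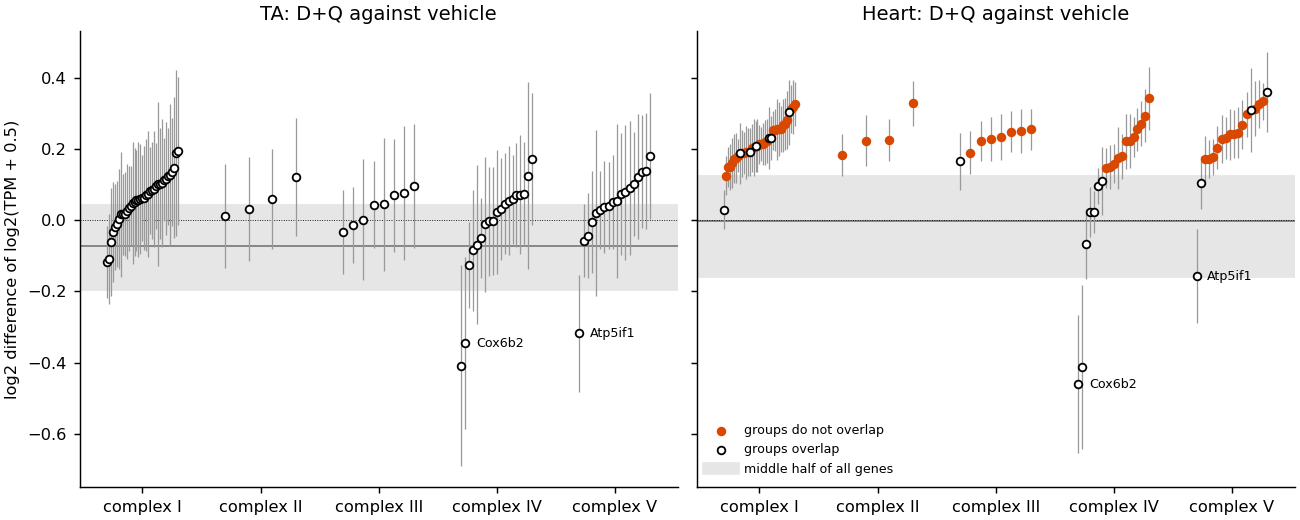
Log2 difference of D + Q against vehicle for each of the 86 members tested, by complex, in TA and in heart, with the SE as a bar, the median of all genes as a horizontal line and the middle range of all genes in grey. In heart 67 filled points mark members whose groups do not overlap and the complexes sit between medians of 0.16 and 0.24, while in TA no point is filled and the members scatter about a median of 0.05.

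The leading complex I gene in heart was Ndufv1, the core subunit that binds NADH, with 217, 214, 190.4 and 153 TPM in vehicle TA, 191, 207, 169.7 and 197 in D + Q TA, 209, 199, 223 and 218 in vehicle heart and 273, 277 and 252 in D + Q heart. The D + Q hearts were higher than all vehicle hearts, a difference of 0.33 (SE 0.06, adjusted p-value 0.0934), and the TA groups overlapped. All 37 complex I genes tested had a positive difference in heart, with a median of 0.21, and 30 did not overlap, among them 6 of the 7 core subunits and 24 of 30 accessory subunits. Core subunits had a median of 0.22 and accessory subunits of 0.21. The 7 that overlapped were the core gene Ndufs8 and the accessory genes Ndufa5, Ndufa11, Ndufb1, Ndufb7, Ndufc1 and Ndufc2, and the 30 that did not ran from 0.13 for Ndufv3 to 0.33 for Ndufv1. Ndufs6, an accessory subunit near the NADH-oxidising end, had 196, 198, 175 and 170.1 TPM in vehicle TA, 158, 195, 182 and 199 in D + Q TA, 344, 305, 358 and 329.6 in vehicle heart and 421, 407 and 412 in D + Q heart. In heart all D + Q values exceeded all vehicle values (0.31, SE 0.07, adjusted p-value 0.103), and all hearts exceeded all TA libraries. Ndufa11, an accessory subunit of the membrane arm, was the lowest of the complex in this comparison, at 0.03 (SE 0.06, adjusted p-value 0.826).

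In complex II, Sdha led with 0.33 (SE 0.06, adjusted p-value 0.0934), followed by the membrane anchor Sdhc at 0.22, the iron-sulfur subunit Sdhb at 0.22 and the second anchor Sdhd at 0.18, and none of the 4 genes overlapped between D + Q and vehicle hearts. In complex III, 7 of 8 genes did not overlap, and the differences ran from 0.17 for Uqcrq to 0.26 for Uqcrfs1, the Rieske iron-sulfur protein. Uqcrb was at 0.23 (SE 0.06). Complexes II and III had medians of 0.22 and 0.23.

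Complex IV was the least uniform, with 12 of 19 genes not overlapping and a median of 0.16. Among the genes of this complex with paired isoforms, the muscle isoforms were the higher ones. Cox6a2, the heart and muscle isoform, had 743, 792, 671 and 613 TPM in vehicle TA, 683, 814, 697 and 707 in D + Q TA, 1188, 1043, 1260 and 1184 in vehicle heart and 1426, 1403 and 1437 in D + Q heart. Its D + Q hearts exceeded the vehicle hearts (0.29, SE 0.07, adjusted p-value 0.126). Its partner Cox6a1 had 57.4, 62.6, 59.4 and 33.5 TPM in vehicle TA, 57.8, 52.97, 43.4 and 67.6 in D + Q TA, 85.7, 91.01, 96.97 and 89.5 in vehicle heart and 85.4, 99.6 and 93.5 in D + Q heart. The Cox6a1 heart groups overlapped, with a difference of 0.02 (SE 0.07). Cox8b, the muscle isoform, had 837, 834, 677 and 338 TPM in vehicle TA, 700.4, 779.8, 622 and 779 in D + Q TA, 818, 883, 1012 and 944 in vehicle heart and 1060, 1119 and 1043 in D + Q heart, and its D + Q hearts exceeded the vehicle hearts by 0.22 (SE 0.08). Its partner Cox8a had 69.7, 74.6, 66.4 and 42.5 TPM in vehicle TA, 70.2, 70.95, 55.5 and 67.1 in D + Q TA, 107, 128, 128 and 118 in vehicle heart and 123, 127 and 122 in D + Q heart, with heart groups that overlapped and a difference of 0.02 (SE 0.06). The 3 Cox7a genes were not split in this way. Cox7a1, the muscle isoform, had 696, 725, 619.5 and 487 TPM in vehicle TA, 632, 712, 545 and 663 in D + Q TA, 1015, 1012, 1220 and 1191 in vehicle heart and 1244, 1240 and 1257 in D + Q heart, and Cox7a2, used in most tissues, had 212, 185, 196 and 135 TPM in vehicle TA, 188, 194, 189.7 and 197 in D + Q TA, 224, 239, 259 and 255 in vehicle heart and 286, 275 and 273 in D + Q heart. Neither overlapped in heart, with differences of 0.17 (SE 0.09) and 0.18 (SE 0.06). Cox7a2l, which joins complex IV to complex III in supercomplexes, had 90.7, 97.7, 80.4 and 64.6 TPM in vehicle TA, 81.6, 88.02, 86.1 and 91.2 in D + Q TA, 105, 114, 120.2 and 102 in vehicle heart and 124, 121 and 115 in D + Q heart and overlapped in heart (0.10).

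For the other isoform pairs of complex IV the major member was higher with D + Q in heart and the heart groups of the minor member overlapped. Cox4i1, the main form of a regulatory subunit, had 689, 637, 597 and 409 TPM in vehicle TA, 606, 661, 539 and 676 in D + Q TA, 942, 943, 1081 and 1075 in vehicle heart and 1173, 1221 and 1146 in D + Q heart, and its hearts did not overlap (0.22, SE 0.08). Cox4i2, an isoform known from lung and from low oxygen, had 7.01, 6.66, 3.11 and 6.11 TPM in vehicle TA, 4.38, 5.82, 4.72 and 4.50 in D + Q TA, 14.4, 13.8, 15.4 and 11.5 in vehicle heart and 16.6, 15.7 and 13.5 in D + Q heart, with overlapping hearts (0.11, SE 0.10). Cox6b1, which faces cytochrome c, had 797, 846, 755 and 749.9 TPM in vehicle TA, 745, 823, 691 and 792 in D + Q TA, 972, 1024, 1002 and 933 in vehicle heart and 1067, 1091 and 1116 in D + Q heart, and its hearts did not overlap (0.15, SE 0.06). Its testis-type partner Cox6b2 had 1.46, 0.823, 1.12 and 0.756 TPM in vehicle TA, 0.834, 0.403, 0.793 and 1.03 in D + Q TA, 1.87, 3.88, 6.34 and 2.57 in vehicle heart and 3.13, 2.99 and 1.82 in D + Q heart, and overlapped with a difference of -0.46 (SE 0.19). Ndufa4, first assigned to complex I and now to complex IV, had 523, 503, 467 and 340 TPM in vehicle TA, 447, 510.4, 439 and 512 in D + Q TA, 636, 623, 702 and 693 in vehicle heart and 733, 728 and 741 in D + Q heart, without overlap in heart (0.15, SE 0.06). Ndufa4l2, its homologue known from low oxygen, had 25.3, 26.9, 18.03 and 29.6 TPM in vehicle TA, 23.7, 24.97, 19.9 and 22.3 in D + Q TA, 35.1, 37.9, 41.3 and 31.9 in vehicle heart and 37.5, 31.8 and 36.5 in D + Q heart, with overlap (-0.07, SE 0.10). Cox5b-ps had 1.58, 1.89, 1.23 and 1.19 TPM in vehicle TA, 1.56, 1.58, 0.35 and 1.27 in D + Q TA, 1.27, 1.96, 2.76 and 1.53 in vehicle heart and 1.01, 2.26 and 1.02 in D + Q heart, also with overlap. The low values of Cox6b2 and Cox5b-ps scattered widely among the hearts of each group.

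Complex V had the highest median in heart, 0.24, and 14 of 18 genes did not overlap. The smallest adjusted p-value of any member was that of Atp5f1c, the gamma subunit of the central stalk, with 484, 477, 439 and 368 TPM in vehicle TA, 428, 460, 450.4 and 470.4 in D + Q TA, 465, 491, 509 and 471 in vehicle heart and 603, 614 and 621 in D + Q heart. The D + Q hearts exceeded the vehicle hearts, a difference of 0.33 (SE 0.05, adjusted p-value 0.0702), and the TA groups overlapped. Of the F1 head, 4 of 5 genes did not overlap, with Atp5f1b at 0.24 (SE 0.07), and all 4 peripheral stalk genes did not, led by Atp5pf at 0.33 (SE 0.07). The c ring is made from 3 genes whose mature protein is the same. Atp5mc1 had 657, 579.5, 603 and 419 TPM in vehicle TA, 571, 690.1, 563 and 671 in D + Q TA, 815, 838, 913 and 869 in vehicle heart and 929.5, 967 and 1005 in D + Q heart. Atp5mc2 had 177, 163, 150 and 92.8 TPM in vehicle TA, 148, 154, 144 and 169 in D + Q TA, 124, 129, 143 and 124 in vehicle heart and 149, 177 and 163 in D + Q heart. Atp5mc3 had 499, 519, 439 and 292 TPM in vehicle TA, 464, 517, 385 and 527 in D + Q TA, 615, 610.4, 709 and 676 in vehicle heart and 759, 783 and 772 in D + Q heart. In all 3 genes the D + Q hearts exceeded the vehicle hearts, by 0.17, 0.31 and 0.24. Atp5if1, which blocks ATP hydrolysis when the proton gradient fails, was the exception, with 60.6, 68.5, 55.3 and 90.2 TPM in vehicle TA, 59.00, 55.6, 48.2 and 51.8 in D + Q TA, 241, 302, 222 and 204 in vehicle heart and 218, 202 and 232 in D + Q heart. Its heart groups overlapped, with a difference of -0.16 (SE 0.13). The largest positive difference of the 86 genes was 0.36 (SE 0.11) for the membrane subunit Atp5me, whose groups overlapped.

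Markers of the heart's cell types moved with the same comparison. The 6 atrial muscle genes summed to 880 to 4290 TPM in the vehicle hearts and to 394 to 443 TPM in the D + Q hearts, and Myl7, Myl4 and Sln were called lower with D + Q (-6.38, SE 0.46, adjusted p-value 0.00904, -6.12, SE 0.37, adjusted p-value 0.00668 and -5.46, SE 0.41, adjusted p-value 0.00997). The atrial markers Myl7 and Sln were near 0 in D + Q hearts, at no more than 4.54 and 0.416 TPM. The 5 red cell genes summed to 346 to 1231 TPM with vehicle and 26.8 to 122 TPM with D + Q, with 5 of 5 below without overlap and 0 called. The 4 ventricular genes summed to 9629 to 11790 TPM with vehicle and 13370 to 14350 TPM with D + Q (median difference 0.31). The 5 cardiac muscle genes summed to 13880 to 15250 TPM with vehicle and 17100 to 18230 TPM with D + Q (median 0.26). Both the ventricular and the cardiac muscle list were thus higher in the D + Q hearts by about as much as the subunit genes. The 4 fibroblast genes summed to 456 to 666 TPM with vehicle and 374 to 435 TPM with D + Q, all 4 with a negative difference (median -0.29), and Col1a1 and Dcn lay below without overlap. The 5 macrophage genes summed to 137 to 232 TPM with vehicle and 109.9 to 182 TPM with D + Q, with 4 of 5 negative (median -0.28) and none without overlap. The 3 endothelial genes had a median of 0.01. None of these 12 genes was called. The part of these marker lists in the subunit result was not tested. In whole tissue a larger share of a cell type and more RNA per cell cannot be told apart.

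**Figure D3:**
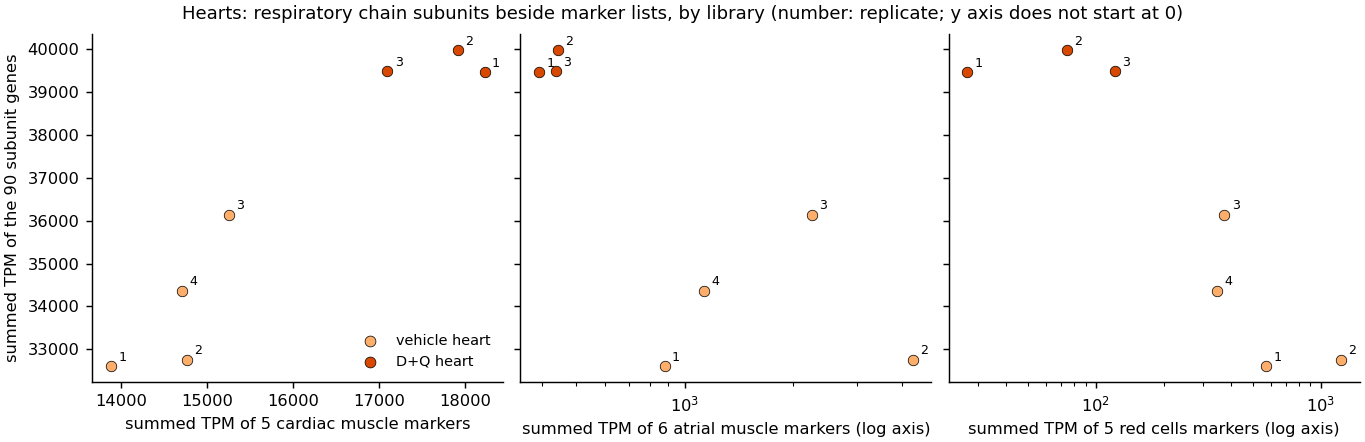
Summed TPM of the 90 subunit genes against the summed TPM of 5 cardiac muscle, 6 atrial muscle and 5 red cell markers in the 7 hearts, with replicate numbers. The 3 D + Q hearts are highest on the vertical axis, have the highest cardiac muscle sums (17100 to 18230 TPM) and the lowest atrial (394 to 443 TPM) and red cell sums (26.8 to 122 TPM).

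An atrial score, the mean log2 level of the 6 atrial genes, was also used as the covariate in place of labelled sex. The members' median in heart was then 0.43 and that of all genes 0.30, and 27 members were higher at an unadjusted p-value under 0.05 (5.29% of all genes). The score did not overlap between the groups, at 5.06 to 7.03 with vehicle and 2.35 to 2.73 with D + Q. This fit therefore cannot separate the score from the treatment, and no conclusion is drawn from it. With the sex read from expression in place of the labelled sex the median was 0.20, with 49 members higher at an unadjusted p-value under 0.05 (4.98% of all genes) and 79 of 86 positive. Without D + Q heart replicate 3 the median was 0.21, 74 members lay above without overlap (17.7% of all genes, a share that is larger with 2 D + Q hearts than with 3), and 36 members were higher at an unadjusted p-value under 0.05 (5.84% of all genes). No member was called in any of these fits.

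Other genes of mitochondrial energy metabolism were compared in heart from lists set up with earlier results known. The 13 citrate cycle genes all lay above without overlap (median 0.24), as did the 7 genes for electron carriers and supercomplexes (median 0.26). Of either list 0 were called (0.316% of all genes). Both lists are abundant, with medians of 226 and 164.5 TPM in vehicle heart. Above without overlap lay 9.63% of all genes and 36% of genes with a mean of at least 50 TPM. The genes that assemble the complexes are expressed at a lower level. The 49 assembly genes had a median of 17.9 TPM in vehicle heart, against 279 TPM for the 86 members. Their counts stand beside the 9.63% of all genes that lay above without overlap. The 15 complex I assembly genes had a median of 0.05 with 2 above without overlap, 4 complex II assembly genes 0.03 with 0, 6 complex III assembly genes 0.17 with 1, 21 complex IV assembly genes 0.13 with 7, and 3 complex V assembly genes 0.13 with 0. The 13 mitochondrially encoded subunits, which are abundant, had a median of 0.12, with 4 above, beside the 36% of genes of at least 50 TPM. Of 12 regulators of mitochondrial genes 4 lay above without overlap (9.63% of all genes) and 0 were called (0.316% of all genes). Their median was 0.13, with 9 positive and 3 negative, the lowest at -0.05. Ppargc1a, the coactivator PGC-1 alpha, had the largest difference (0.89, SE 0.16, adjusted p-value 0.0908), with 29.4 to 44.3 TPM in vehicle and 59.3 to 78.2 TPM in D + Q hearts. Perm1, a muscle regulator that acts with it, was at 0.46, SE 0.08, adjusted p-value 0.0904, and the nuclear receptors Esrrb and Esrrg at 0.35 and 0.19.

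In TA, no subunit gene differed detectably between D + Q and vehicle. None of the 86 members was called (0% of the 16298 genes tested were), none had an unadjusted p-value under 0.05 (2.99% of all genes did), and no member lay above or below without overlap (0.264% and 1.25% of all genes). The median difference was 0.05, with 65 positive, against a median of -0.07 for all genes, and the medians by complex were 0.06, 0.05, 0.04, 0.02 and 0.05 for complexes I to V. The 3 members with the smallest p-values were Cox5b-ps (-0.41, SE 0.28), Cox6b2 (-0.35, SE 0.24) and Atp5if1 (-0.32, SE 0.17), all with an adjusted p-value of 0.999. For Atp5if1 the D + Q libraries read 48.2 to 59.0 TPM and the vehicle libraries 55.3 to 90.2 TPM, so the ranges overlapped. The sign of the median was not stable. It was -0.03 with labelled sex as the covariate or in males only, -0.04 without vehicle TA replicate 4 and -0.05 without D + Q TA replicate 3. Among 12 regulators the median was 0.01 and among 13 citrate cycle genes 0.02, with none called or separated.

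The D + Q effects in TA and heart were then compared directly, in a fit of all 15 libraries. The effect in TA was below that in heart for 81 of 86 members, with a median of -0.18 (all genes -0.01), but 0 members were called, as were 0.0616% of all genes (11). At an unadjusted p-value under 0.05, 8 members had a lower effect in TA, as had 1.98% of all genes. The 3 with the smallest p-values were the complex I accessory gene Ndufa5 (-0.42, SE 0.13, adjusted p-value 0.77), Cox6c (-0.33, SE 0.13, adjusted p-value 1) and Ndufs6 (-0.33, SE 0.14, adjusted p-value 1). Ndufa5 had 174, 190.1, 184 and 177 TPM in vehicle TA, 167, 169, 162 and 174 in D + Q TA, 255, 256, 287 and 296 in vehicle heart and 296, 356 and 355 in D + Q heart. In TA its D + Q values lay at the low end of the range, and in heart vehicle replicate 4 was level with the lowest D + Q value. The count of 8 rested on single libraries: it was 34 without vehicle TA replicate 4 (3.95% of all genes in the same fit), 10 without vehicle heart replicate 3 (2.09%), 2 to 5 (1.26 to 2.7% of all genes) without D + Q TA replicate 1 or 3, vehicle TA replicate 1, 2 or 3, vehicle heart replicate 1, 2 or 4 or any D + Q heart, and 7 or 8 (2.3% and 2.04%) without the remaining 2 libraries. A difference between the tissues in their response to D + Q was not shown for any member.

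Between tissues the subunit genes differed more. With vehicle, 21 of 86 members were called lower in TA than in heart, that is higher in heart, as were 14.2% of all 17868 genes tested, and 1 member, Ndufa13, was called higher in TA, as were 22.5% of all genes. The members' median was -0.33 (TA minus heart), against 0.16 for all genes, which puts the members 0.48 below the median gene. With D + Q, 40 members were called lower in TA (13.3% of all genes) and 0 higher (21.4% of all genes), at a median of -0.48 and 0.64 below the median gene. The D + Q TA libraries are all male and the D + Q hearts all read as female, so sex as read differs along with tissue here. The groups did not overlap for 44 members lower in TA with vehicle (15% of all genes) and for 77 with D + Q (19.9% of all genes). Scaling by median-of-ratios factors, which sets the median of all genes to about 0, moved the members further down: 44 members were then called lower and 0 higher with vehicle and 71 and 0 with D + Q, while the calls over all genes went from 4027 higher and 2532 lower to 2930 and 3304 with vehicle, and from 3829 and 2372 to 2959 and 3266 with D + Q. Without vehicle TA replicate 4, 16 members were called lower with vehicle (2225 of all 17767 genes) and 1 higher (4749 of all genes). The median was then -0.19, against 0.24 for all genes. Without D + Q heart replicate 3, 35 were called lower with D + Q (9.86% of all genes) and 0 higher (15.4%). The median was then -0.54, against 0.16 for all genes.

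**Figure D4:**
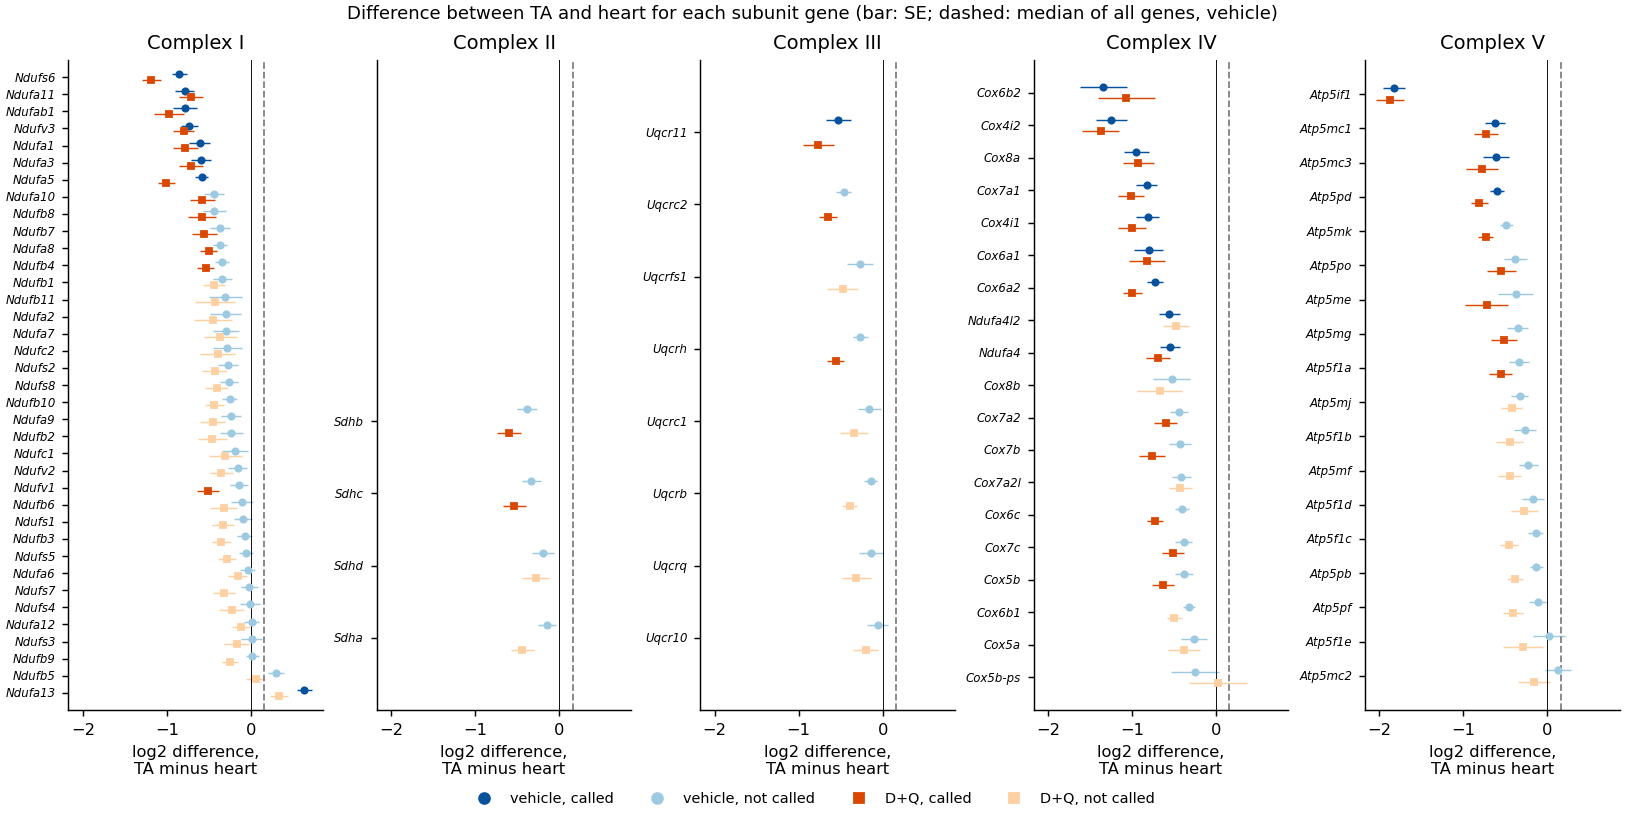
Log2 difference between TA and heart for each of the 86 members, by complex, with vehicle (blue circles) and with D + Q (orange squares), the SE as a bar and the median of all genes with vehicle (0.16) as a dashed line. Dark symbols mark called genes, 22 with vehicle and 40 with D + Q, and Atp5if1 lies farthest to the left in complex V while Ndufa13 alone is called to the right.

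By complex, the calls with vehicle were 7 lower of 37 in complex I, 0 of 4 in complex II, 1 of 8 in complex III, 9 of 19 in complex IV and 4 of 18 in complex V, at medians of -0.26, -0.26, -0.21, -0.53 and -0.33. The calls with D + Q were 13, 2, 3, 13 and 9 in the same order. The ratio of summed TPM in vehicle heart to vehicle TA was 1.211, 1.184, 1.172, 1.427 and 1.273 for complexes I to V, complex IV having the largest ratio and the lowest median. Without vehicle TA replicate 4 the ratios were 1.132, 1.1, 1.107, 1.345 and 1.188. With all libraries the sums of complexes I, III, IV and V did not overlap between the vehicle tissues, and the same 4 did not without that library.

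In complex I the genes called lower in TA with vehicle were all accessory subunits, 7 of 30, and 0 of 7 core subunits were called in either direction, with medians of -0.30 and -0.14. Ndufs6 (ENSMUSG00000021606, chr13:73464968-73476661 on the minus strand of GRCm39) led with -0.85 (SE 0.09, adjusted p-value 2.99e-06), and with D + Q it was -1.19. The others were Ndufa11 at -0.79, the acyl carrier protein Ndufab1 at -0.78, Ndufv3 at -0.73, Ndufa1 at -0.61, and Ndufa3 and Ndufa5, both at -0.59. Ndufa5 was at -1.01 with D + Q (adjusted p-value 2.35e-06). With D + Q all 7 were called again, joined by 5 accessory genes, Ndufa8 (-0.50), Ndufa10 (-0.58), Ndufb4 (-0.54), Ndufb7 (-0.56) and Ndufb8 (-0.58), and by 1 core gene, Ndufv1 (-0.51). Ndufa13, an accessory subunit also known as the cell death gene GRIM-19 (ENSMUSG00000036199, chr8:70346808-70355872 on the minus strand of GRCm39), went the other way, with 114, 112, 113 and 98.6 TPM in vehicle TA, 101, 114, 117 and 113 in D + Q TA, 66.9, 67.3, 80.8 and 66.3 in vehicle heart and 86.7, 90.98 and 87.8 in D + Q heart. Every TA library was above every heart, and the difference with vehicle was 0.64 (SE 0.09, adjusted p-value 3.59e-05), whereas with D + Q it was 0.34 and not called, below the fold limit. The vehicle call of Ndufa13 was lost with median-of-ratios scaling. Ndufa12 was at 0.0070 with vehicle, and the core genes Ndufs1, Ndufs7 and Ndufv1 at -0.09, -0.02 and -0.14.

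In complexes II and III, 1 of 12 genes was called with vehicle and 5 of 12 with D + Q. With vehicle Uqcr11, a small subunit of complex III, was called (-0.53, SE 0.15, adjusted p-value 0.0102), and with D + Q Sdhb, Sdhc, Uqcr11, Uqcrc2 and Uqcrh were called, at -0.60, -0.53, -0.77, -0.65 and -0.56. Sdha and Uqcrb were not called, at -0.15 and -0.14 with vehicle.

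In complex IV both forms of several isoform pairs were higher in heart. With vehicle Cox6a2 was at -0.73 (SE 0.10, adjusted p-value 2.31e-05) and Cox6a1 at -0.80, Cox4i1 at -0.82 and Cox4i2 at -1.25, and Ndufa4 at -0.55 and Ndufa4l2 at -0.56, and all 6 were called. The call of Ndufa4 was lost without vehicle TA replicate 4 (-0.41) and that of Ndufa4l2 without vehicle TA replicate 3 (-0.43). Of the Cox7a genes Cox7a1 was called (-0.82) and Cox7a2 (-0.44) and Cox7a2l (-0.42) were not, their differences being under the fold limit. Of the Cox8 pair Cox8a was called (-0.95) and the muscle isoform Cox8b was not (-0.53, SE 0.22), its vehicle TA values running from 338 to 837 TPM. Cox6b2, at -1.34, was called at levels of a few TPM, and with D + Q its call (-1.07) was lost without D + Q TA replicate 2 (-0.92), D + Q heart replicate 1 (-1.02) or D + Q heart replicate 3 (-1.24). It was also lost with no filter on low values (-1.07), with sex read from expression (-1.03) and in a fit of the D + Q libraries alone (-0.90). Cox6b1 was not called with vehicle (-0.32). With D + Q Cox6c (-0.73), Cox5b (-0.63), Cox7a2 (-0.60), Cox7b (-0.76) and Cox7c (-0.52) were also called.

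Complex V held the gene with the largest difference of all members, the inhibitor Atp5if1 (ENSMUSG00000054428, chr4:132257215-132262823 on the minus strand of GRCm39). Its mean was 68.6 ± 15.4 TPM (SD, n = 4) in vehicle TA and 243 ± 42.6 TPM (SD, n = 4) in vehicle heart, a difference of -1.82 (SE 0.13, adjusted p-value 7.13e-08), and with D + Q the difference was -1.87 (adjusted p-value 6.68e-07). The lowest heart value was 202 TPM and the highest TA value 90.2 TPM. By contrast the F1 head it binds differed little with vehicle, with 0 of 5 genes called and a median of -0.17, Atp5f1b being at -0.27 and Atp5f1c at -0.14. In the c ring Atp5mc1 (-0.62) and Atp5mc3 (-0.61) were called and Atp5mc2 (0.12) was not, and the remaining call was the peripheral stalk gene Atp5pd (-0.60). With D + Q these 4 genes were called again, with Atp5mk (-0.74), Atp5me (-0.72) and Atp5mg (-0.52) of the membrane part, Atp5f1a (-0.55) of the head and Atp5po (-0.55) of the peripheral stalk. Without vehicle TA replicate 4 the vehicle calls of Atp5mc1 (-0.49) and Atp5mc3 (-0.42) were lost.

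Shares within an isoform set do not depend on the scaling of a library. Of Cox7a1, Cox7a2 and Cox7a2l together, Cox7a1 held 66.4 to 71.9% of TPM in the 8 TA libraries and 74.2 to 77.0% in the 7 hearts, without overlap. Of the 3 c ring genes, Atp5mc2 held 11.3 to 13.3% in TA and 7.44 to 9.18% in heart, also without overlap. Cox8b held 87.4 to 89.8% of the Cox8a and Cox8b sum in heart and 88.8 to 92.3% in TA. Within heart, the share of the muscle isoform was higher with D + Q and did not overlap for Cox6a2 (92.0 to 93.3% with vehicle, 93.4 to 94.4% with D + Q) and for Cox8b (87.4 to 88.9% with vehicle, 89.6 to 89.8% with D + Q). The heart ranges of Cox7a1 overlapped, at 74.2 to 77.0% with vehicle and 75.2 to 76.5% with D + Q. Minor isoforms stayed minor everywhere, with Cox4i2 at 0.519 to 1.51% of the Cox4 sum, Cox6b2 at 0.0490 to 0.628% of the Cox6b sum and Ndufa4l2 at 3.72 to 8.02% of the Ndufa4 pair. No share was tested.

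**Figure D5:**
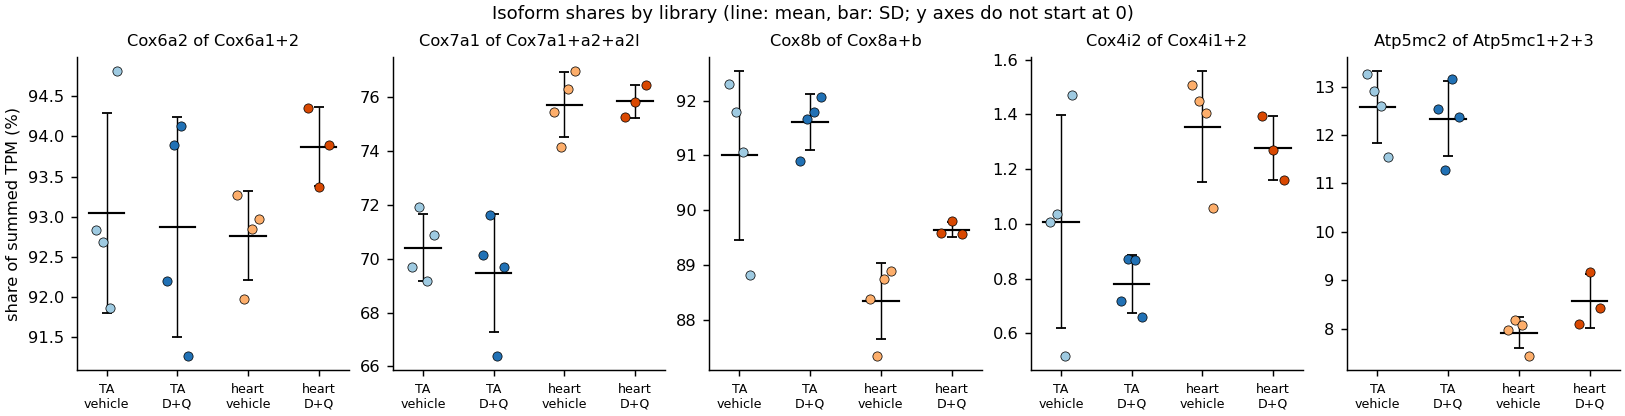
Share of an isoform in the summed TPM of its set (percent) in the 15 libraries, with the mean as a line and the SD as a bar, for Cox6a2, Cox7a1, Cox8b, Cox4i2 and Atp5mc2. Cox7a1 lies higher and Atp5mc2 lower in all hearts than in all TA libraries, and Cox6a2 and Cox8b are higher in D + Q than in vehicle hearts.

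Genes of the neighbouring lists were called between tissues in both directions, beside 22.5% of all genes higher and 14.2% lower in TA with vehicle. With vehicle, 3 of 7 genes for electron carriers and supercomplexes were called lower in TA and 0 higher, and these were the electron transfer flavoprotein genes Etfa (-1.29) and Etfb (-1.14), and Etfdh (-1.70), which hands their electrons to ubiquinone. Of 13 citrate cycle genes 1 was called higher (Idh3a, 0.67) and 2 lower (Ogdh, -0.86, and Suclg2, -1.75). Of the assembly factors, 2 were higher and 4 lower of 15 for complex I (Ndufaf6 at 0.81 and Foxred1 at -1.08 being the extremes), 2 higher and 0 lower of 6 for complex III and 3 higher and 3 lower of 21 for complex IV, from Cox16 (0.94) to the copper chaperone Cox17 (-0.96). Of 12 regulators 3 were lower in TA, Esrrb (-1.81), Esrrg (-1.60) and Ppargc1b (-0.59), and Ppargc1a was not called (-0.44). Of the 13 mitochondrially encoded subunits mt-Co1 was called (-0.56), and their median was 0.02, where the nuclear subunits had -0.33.

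Some members share sequence with copies elsewhere in the genome, so that reads could be divided between them in ways the TPM do not show. Non-coding copies with at least 90% identity over at least 80% of their length and a mean of at least 1 TPM were found for 15 members, 21 copies in all. For 2 of them the copy had the higher mean, Ndufb4c with 326 TPM against 102 TPM for Ndufb4, and Gm6969 with 168 TPM against 98.7 TPM for Cox7a2l. Ndufa12-ps had 261 TPM against 533 TPM for Ndufa12, and Gm10443 had 100.4 TPM against 269.9 TPM for Ndufs6. The levels of Ndufb4, Cox7a2l, Ndufa12 and Ndufs6 are uncertain to that extent. The D + Q hearts no longer all exceeded the vehicle hearts for Ndufb4 once Ndufb4c was added. With the copy added, the vehicle difference between TA and heart was -0.58 for Ndufs6 in place of -0.85.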

How the data were processed

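RNA from TA muscle and heart of DBA/2J-mdx mice was sequenced by the authors as mRNA libraries of paired reads. Per the labels and the study's methods, reads were trimmed with Trim Galore 0.6.10 and quantified with Salmon 1.10.3 against GRCm39, and the authors deposited TPM per gene for 56980 Ensembl identifiers in 15 libraries. The annotation release was not given in the sources used here. GENCODE M39 held 56236 of the identifiers and gave symbols, biotypes and positions. TPM keeps no depth, and because each library is scaled to the same total, a shift in a few abundant genes moves all others.

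limma 3.58.1 in R 4.3.3 was run on log2(TPM + 0.5), using lmFit and eBayes with a trend, for genes that reached 0.5 TPM in 3 or more libraries of a fit. The TA fit (8 libraries) held 1 surrogate variable estimated in 5 rounds and the heart fit (7 libraries) held labelled sex, as in the study's design. The study instead used a count-based test and reported genes higher and lower with D + Q in both tissues. In TA the fit of TPM here called 0 of 16298 genes, so an absence of calls does not show an absence of response. A fit of all 15 libraries with 4 group means and labelled sex gave the tissue contrasts and the difference of the D + Q effects. Tests were two-sided and p-values were adjusted over all genes of a fit. The code was tested on simulated data. Sums and shares were not tested. Copies were found with blastn 2.17.0, and start regions came from RefSeq on GRCm38.p6.

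The members and gene lists were chosen with earlier results of these data known. Genes given with values in every library were the most abundant of each complex, the isoform sets, Atp5if1 and the 3 with the smallest p-values per comparison and direction. Alternatives were other pseudocounts (0.1 and 1), other filters, scaling by median-of-ratios or outside the mitochondrial genome, no trend, other covariates, no fold limit and each library left out. Adding near-identical copies to the sums, leaving libraries out of the ratios of sums, and repeating the counts at an unadjusted p-value in heart and in the difference of effects, were chosen after seeing the data. Replicate numbers are shared between groups, but deviations of same-numbered libraries correlated at -0.30 to 0.04 in TA and -0.04 to 0.03 in heart, so the numbers do not pair libraries.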

Additional observations from a re-analysis of the deposited data

Results flagged for a closer look

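In groups of 4 libraries, 159 sets of values (levels of the named members, complex sums and isoform shares) were examined for a library far from the other 3, and 4 were found, where chance flags about 1 in 20 sets (7.95). Each concerns a gap that takes up most of the range of its group. Ndufa12 in D + Q TA was 496.5 TPM in replicate 1 and 552 to 561 TPM in the others (gap 0.867 of the range). Ndufa13 in vehicle TA was 98.6 TPM in replicate 4, the library with the lowest summed level, and 112 to 114 TPM in the others (0.867). Ndufa13 in vehicle heart was 80.8 TPM in replicate 3 and 66.3 to 67.4 TPM in the others (0.925). Uqcrb in vehicle TA was 976 TPM in replicate 4, the highest of its group although that library's summed level was the lowest, and 937 to 938 TPM in the others (0.97). A difference between TA and heart in the D + Q effect was detected for 0 of 86 members (limma, adjusted p-value under 0.05).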

How the results depend on the processing

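The absence of calls with D + Q in TA, in heart and in the difference of effects held under each alternative run. The smallest adjusted p-value of a member in heart was 0.0401 when TPM was scaled outside the mitochondrial genome and 0.0456 without vehicle heart replicate 3, with differences under the fold limit. Members called between the tissues with vehicle numbered 46 with no fold limit (2 higher and 44 lower) and 44 with median-of-ratios scaling, against 22, and with D + Q 71 with median-of-ratios scaling, against 40. They ranged from 17 to 27 and from 35 to 44 when libraries were left out. With the replicate block 0, 0, 22, 32 and 0 members were called with D + Q in TA and in heart, between tissues with vehicle and with D + Q, and in the difference of effects, and Cox7a2 (-0.50) lost its call with D + Q.

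Members of TA whose groups do not overlap numbered 1 with scaling outside the mitochondrial genome and 0 to 3 when libraries were left out (3 without vehicle TA replicate 3). That scaling raised the summed TPM to 35189 in vehicle TA, 36028 in D + Q TA, 46589 in vehicle heart and 55972 in D + Q heart, and the D + Q heart sum was 40335 with named pseudogenes and 40801 with near-identical copies added. Signs turned for some differences that were not called. In heart these were Cox6a1 (-0.019) and Cox8a (-0.048) with sex read from expression, Cox6b2 (2.33, against -0.46) and Ndufa4l2 (0.22) with the atrial score, and, over left-out libraries, Cox6a1 (-0.026 to 0.090), Cox8a (-0.034 to 0.049) and Ndufa4l2 (-0.19 to 0.024). Between tissues with vehicle they were Atp5mc2 (-0.064) and Ndufa12 (-0.18) with median-of-ratios scaling and Ndufa12 with scaling outside the mitochondrial genome (-0.033) and over left-out libraries (-0.052 to 0.093). The cause was not tested. TPM gives no depth, so errors rest on 3 or 4 libraries a group.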
